A study of Mus musculus with 4 samples.

Results

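The Dlk1-Dio3 cluster is an imprinted miRNA cluster on mouse chromosome 12. Its members were taken by name, as every mouse miRNA on the array whose base name (the name without star or arm) is among 40 listed for this locus. This gave 62 mature miRNAs of 611 mouse miRNAs on the array. Membership went by name alone, but the cluster was chosen with earlier results of these data known.

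In this region Dlk1, Rtl1 and Dio3 are expressed from the paternal chromosome, while Meg3, the Rtl1 antisense transcript, Rian and Mirg are long noncoding RNAs of the maternal chromosome, and the miRNAs are cut from these maternal transcripts. Expression of the maternal transcripts is used as a mark of fully reprogrammed mouse pluripotent stem cells. In the brain many of the miRNAs are abundant in neurons, where the miR-379 to miR-410 group is transcribed in response to neuronal activity.

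The samples were neural stem and progenitor cells made from mouse embryonic stem cells and grown as neurospheres, which are floating balls of dividing neural cells. Primary neurospheres (passage 0, day 6 counted from embryoid bodies) and secondary neurospheres (passage 1, day 12) were each grown as mixtures of wild-type cells and cells that overexpress NFIA, a transcription factor of gliogenesis, and the fractions were separated by sorting on fluorescence. Each passage gave 1 array titled control and 1 titled NFIA OE, so there were 4 arrays and no group had a replicate. The source names contradict the titles: at both passages they name the cells on the control-titled array as the NFIA OE line and those on the other array as wild type. Groups below follow the titles, and every difference by title would change sign if the source names are right. The cells of a passage shared their spheres, so its 2 arrays were not independent cultures, and passage cannot be told apart from days in culture. The promoter that drives NFIA and the number of lines are not given in the sources used here.

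The arrays held 13000 spots each outside the controls, and detected 186 to 220 of the 611 mouse miRNAs. The primary control-titled array gave the weakest signal: over the probes detected on all arrays its 75th percentile was 167 intensity units, and those of the others were 261 to 443. Of 4 neural marker strands, miR-9, miR-9* and miR-124 were detected on all 4 arrays and miR-124* on none. The 5 blood miRNAs were detected on none (0). A level below is a miRNA's background-subtracted intensity divided by that 75th percentile of the same array, so a level of 1 equals it. Levels of different miRNAs are not compared, because each probe has its own brightness.

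Of the 62 members, 56 had a mature sequence in RefSeq (GRCm38.p6), and 39 hairpins placed them, with the mature strands of miR-666, on chromosome 12. The sequences below belong to the members on which the results turn: those with the largest falls at passage 1 (miR-300, miR-495, miR-410, miR-541), the one member not called (miR-494), the Rtl1 antisense miRNAs miR-127, miR-431 and miR-433, and the pairs of like sequence discussed after them. Capitals mark the seed, bases 2 to 8 from the 5′ end, which leads the pairing with target RNAs.
miR-541: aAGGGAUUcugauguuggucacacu
miR-410: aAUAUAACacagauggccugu
miR-495: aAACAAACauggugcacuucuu
miR-543: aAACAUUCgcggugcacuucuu
miR-300: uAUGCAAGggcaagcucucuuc
miR-381: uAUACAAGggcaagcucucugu
miR-494: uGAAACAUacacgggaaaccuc
miR-379: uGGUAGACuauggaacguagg
miR-411: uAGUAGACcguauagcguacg
miR-376a: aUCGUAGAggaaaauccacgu
miR-376b: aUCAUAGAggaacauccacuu
miR-127: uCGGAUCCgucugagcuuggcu
miR-431: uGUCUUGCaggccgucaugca
miR-433: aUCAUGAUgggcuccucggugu

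The members share a locus more than a seed. The 15 members that were both detected on all 4 arrays and matched to a sequence carried 15 distinct seeds, and the 56 sequences carried 55. Among those detected on all 4 arrays, miR-379 and miR-411 had the same bases 3 to 8 and 14 of 21 positions alike. miR-543 and miR-495 matched at 18 of 22 positions and over the last 12 bases. miR-376a and miR-376b, whose precursors are edited by deamination of adenosine in the brain, matched at 18 of 21. Cross-hybridisation between such pairs was not tested. miR-300 and miR-381 shared 19 of 22 positions and a run of 16 bases, and miR-300 was detected on 4 arrays and miR-381 on 0.

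The hairpins lie in 3 stretches. In GRCm38.p6 the first runs from Mir770 to Mir136, where 14 members lie within the Rtl1 span and 2 (both strands of miR-770) within Meg3. The second holds miR-341 and miR-370 within Rian. The third begins with Mir379 at chr12:109709060-109709125, 145.4 kb from the start of Mir770, and ends with Mir410 at chr12:109743715-109743795, 180.0 kb from it. Of the 44 members there, 11 lie within the annotated span of Mirg. miR-127, the best known of the Rtl1 antisense miRNAs, lies at chr12:109592846-109592915.

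Fewer members were detected at passage 1. In the order titled control, then NFIA OE, the primary arrays detected 27 and 35 of the 62 members (43.5% and 56.5%), and the secondary ones 18 and 17 (29.0% and 27.4%). Of the 549 other mouse miRNAs the same arrays detected 159 and 185, then 191 and 190. Detection here means that at least 50% of a probe's spots were well above background for at least 1 probe of the miRNA. With the scanner's own gene-level flag the counts were 33, 39, 24 and 27 in the same order (53.2%, 62.9%, 38.7% and 43.5%). This flag detected 34.8%, 40.6%, 39.9% and 40.8% of the other mouse miRNAs. With it the secondary arrays thus detected members about as often as other miRNAs. With all spots required the counts were 23, 30, 13 and 16 (37.1%, 48.4%, 21.0% and 25.8%). The shares of the other mouse miRNAs were then 23.3%, 30.2%, 31.0% and 30.8%.

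The loss went one way. In the pair of arrays titled control, 9 of the members detected at passage 0 were not detected at passage 1, which is 33.3% of them, and 0 were gained. In the pair titled NFIA OE 18 were lost, or 51.4%, and 0 gained. Among the other mouse miRNAs 10.7% and 7.57% of those detected at passage 0 were lost in these pairs, while 49 and 19 were gained. The primary array titled control had the weakest signal, and 27 members were detected on it against 18 and 17 on the secondary arrays. The part of array signal in detection was not tested.

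**Figure D1:**
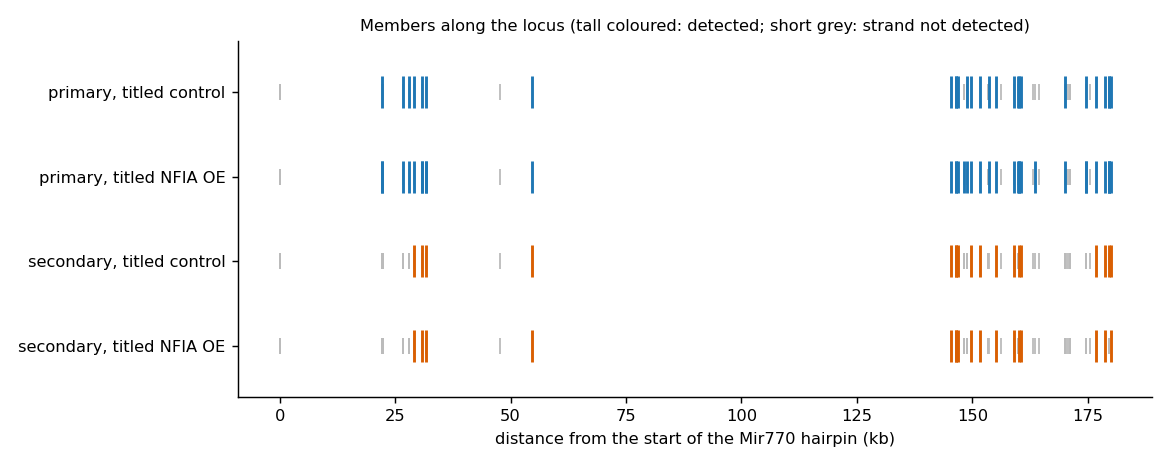
Members by distance from the start of the Mir770 hairpin (kb, x axis) on each of the 4 arrays; tall coloured ticks are hairpins with a detected member and short grey ticks those with an undetected strand. All 3 stretches held detected members on every array, and the counts were 27 and 35 on the primary arrays and 18 and 17 on the secondary ones.

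By stretch, the Meg3 and Rtl1 antisense group went from 6 and 9 detected of 16 at passage 0, in the order control and NFIA OE, to 3 and 3 at passage 1. The Rian group held 1 detected member, miR-370, on every array. The miR-379 to miR-410 group went from 20 and 25 of 44 to 14 and 13. Both strands of a precursor were detected on all 4 arrays for 1 hairpin, that of miR-411.

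Detection sorted the members into 5 patterns. On all 4 arrays 17 were detected, and these were measured and tested below. On both primary arrays and neither secondary array there were 9: miR-154*, miR-323-3p, miR-337-5p, miR-376b, miR-382, miR-409-3p, miR-431, miR-433 and miR-543. miR-369-5p was missing only from the secondary array titled NFIA OE. On the primary array titled NFIA OE alone there were 8: miR-136*, miR-154, miR-337-3p, miR-376a*, miR-380-3p, miR-409-5p, miR-434-5p and miR-487b. On no array were 27: miR-127*, miR-134, miR-299, miR-300*, miR-323-5p, miR-341, miR-369-3p, miR-376b*, miR-376c*, miR-380-5p, miR-381, miR-382*, miR-412, miR-431*, miR-433*, miR-485, miR-485*, miR-496, miR-539, miR-540-3p, miR-540-5p, miR-666-3p, miR-666-5p, miR-667, miR-668, miR-770-3p and miR-770-5p. Among these is miR-134, known for limiting the size of dendritic spines. Not well above background gives only an upper limit on a level, and does not show that the miRNA was absent.

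Next the 17 members measured on every array were compared between passages, to ask how the cluster differs between secondary and primary spheres. All 17 had both primary levels above both secondary levels, against 56.9% of the 153 mouse miRNAs measured on all 4 arrays. The gap between the lower primary and the higher secondary level ran from 0.16 log2 for miR-494 to 1.74 for miR-541. limma called 16 of the 17 lower at passage 1 at a Benjamini-Hochberg adjusted p under 0.05 over all 153 miRNAs, of which it called 32.7% lower. The median log2 difference of the 17 members was -1.46, a 2.75-fold fall, against -0.39 over all 153. The fit held title and passage as additive terms and left 1 residual degree of freedom. Its prior degrees of freedom, limma's weight on the spread pooled over miRNAs, came out infinite. All miRNAs were thus judged against 1 pooled standard error of 0.29 log2. The p-values of the fit rest on this pooling. Their only residual is how much the difference by passage varied between the 2 pairs of arrays. The 2 arrays of a passage shared their spheres, so spread between cultures does not enter the passage p-values. In bulk RNA, fewer cells that make a miRNA and less of it per cell cannot be told apart.

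The scaling between arrays moves all passage differences together. Over the scalings and background corrections tried, the median of all miRNAs tested ran from -0.49 to 0.56, and the members' median lay below it each time. The percentile over all probes, no scaling and median centring only shift each array as a whole. They could not change the gap between the 2 medians, which stayed at -1.07. It was -0.52 with normexp background correction and -0.80 with quantile normalization. Against the median miRNA of the same fit, limma called 15 members lower, with 17.6% of all 153 called lower in this way. Under the alternatives to the fit, 15 of the 17 members were lower at passage 1 in each alternative run. The exceptions were miR-136, which turned without scaling, and miR-494, which turned under 4 alternatives. The count of members called was 16 with normexp background correction, 13 with the authors' processed values and 4 with a percentile over all probes, where limma called 87, 56 and 22 of all 153 in either direction. Without scaling it called 0 members (0 at an unadjusted p under 0.05) and 21 of all 153. With median centring and with quantile normalization it called 0 of all 153, and so 0 members, of which 13 and 13 passed an unadjusted p under 0.05.

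**Figure D2:**
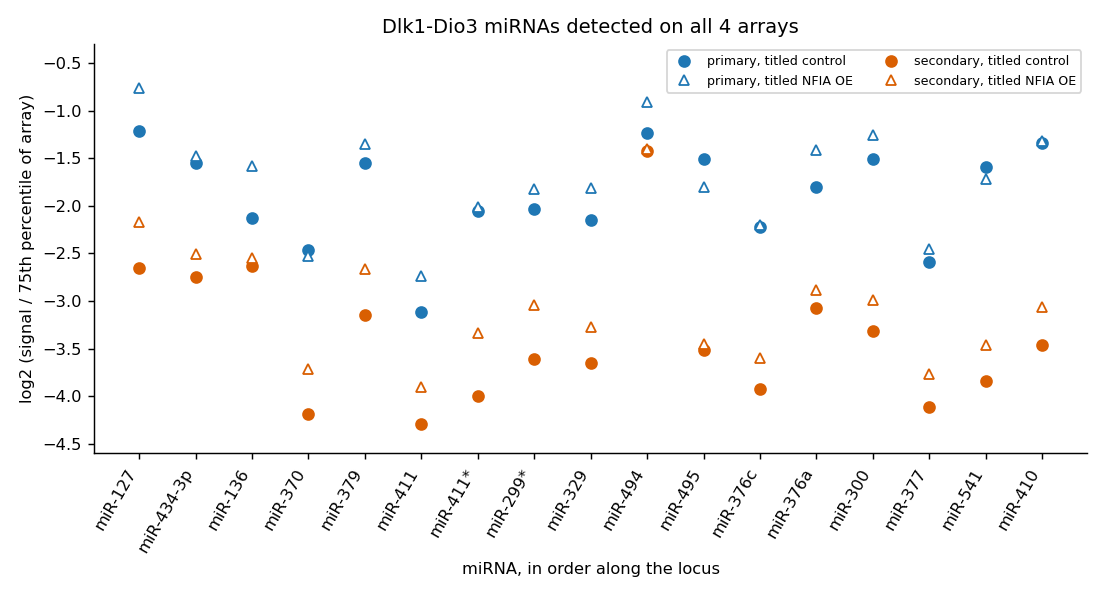
Level of each of the 17 members on each array, as log2 of intensity over the array's 75th percentile (y axis), in order along the locus (x axis); each point is 1 array, without replicates. For every member both secondary points lie below both primary points, narrowly for miR-494, an order that depends on scaling for miR-136 and miR-494.

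The Rtl1 antisense miRNAs are complementary to the Rtl1 transcript and direct its cleavage. In the order titled control, then titled NFIA OE, miR-127 had levels of 0.430 and 0.588 at passage 0 and of 0.158 and 0.222 at passage 1. It was 2.68-fold lower at passage 1, a log2 difference of -1.42 (limma adjusted p = 2.16e-05), with -1.44 in the control-titled pair of arrays and -1.41 in the other pair. The groups did not overlap, which held for all 17 measured members and for 56.9% of all 153 miRNAs. The 2 pairs gave nearly the same fall.

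miR-434-3p stood at 0.342 and 0.359 in primary spheres and at 0.149 and 0.176 in secondary spheres, in the same order of titles. The 2.16-fold fall (-1.11, limma adjusted p = 0.000992) was narrowly called against the median miRNA as well (adjusted p = 0.0456). miR-136 read 0.228 and 0.335, then 0.162 and 0.171. It fell 1.66-fold (-0.73, limma adjusted p = 0.0327) and was not called against the median miRNA (adjusted p = 0.398), and without scaling its difference was 0.22. The pairs gave -0.50 (titled control) and -0.97 (titled NFIA OE) for miR-136, whose 2 primary levels lay further apart than its secondary ones.

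In the Rian stretch miR-370 had primary levels of 0.182 and 0.174 and secondary levels of 0.0548 and 0.0761. It showed a fall of 2.75-fold (-1.46, limma adjusted p = 1.43e-05). Its other neighbour in the stretch, miR-341, was not detected.

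The miR-379 to miR-410 group supplied 13 of the measured members, with passage differences from -1.99 to -0.34 and a median of -1.48. limma called 12 of them lower. At the upstream end miR-379 read 0.341 and 0.393 at passage 0 and 0.113 and 0.157 at passage 1, a 2.75-fold fall (-1.46, limma adjusted p = 1.43e-05). Its neighbour miR-411, with the related seed, read 0.115 and 0.150, then 0.0510 and 0.0667, a 2.25-fold fall (-1.17, adjusted p = 0.000489). On the secondary array titled control the level of miR-411 lay only 0.04 log2 above the lowest detected signal.

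The other strand of that hairpin, miR-411*, could be set beside it. It read 0.241 and 0.247, then 0.0628 and 0.0993, and fell 3.09-fold (-1.63, limma adjusted p = 1.45e-06). Between the arrays titled control the differences of miR-411 and miR-411* were -1.18 and -1.94, and between those titled NFIA OE -1.17 and -1.32. That the strands differ in their fall was not tested. miR-299*, from the hairpin next to them, read 0.245 and 0.282, then 0.0820 and 0.121, and fell 2.64-fold (-1.40, adjusted p = 2.78e-05).

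miR-329, which takes part in the activity-dependent growth of dendrites, read 0.225 and 0.285 at passage 0 and 0.0798 and 0.103 at passage 1. Its fall was 2.79-fold (-1.48, limma adjusted p = 1.12e-05) and the pairs lay close, at -1.50 and -1.47.

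miR-494 was the member that did not pass. It read 0.424 and 0.533 in primary spheres and 0.373 and 0.379 in secondary spheres, with a log2 difference of -0.34 (limma adjusted p = 0.356), close to the median of all miRNAs. Its hairpin lies between those of miR-329 and miR-495, 151.6 kb from Mir770, with members on both sides that were called lower. With the authors' processed values miR-494 was at 0.32, and without scaling at 0.61.

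By size of the fall miR-541 ranked 2, miR-410 ranked 3, miR-495 ranked 4 and miR-300 ranked 5 among the 153 miRNAs measured. miR-541 read 0.332 and 0.303, then 0.0701 and 0.0909. Its fall was 3.98-fold (-1.99, limma adjusted p = 6.2e-09). miR-410 read 0.394 and 0.401 on the primary arrays, which barely differed, and 0.0905 and 0.120 on the secondary ones, a 3.82-fold fall (-1.93, adjusted p = 1.58e-08).

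For miR-495 the levels were 0.351 and 0.288, then 0.0873 and 0.0911. It fell 3.57-fold (-1.83, limma adjusted p = 6.37e-08). miR-300 read 0.351 and 0.417, then 0.101 and 0.126, and fell 3.40-fold (-1.76, adjusted p = 1.9e-07). All 4 of these members were lower in both pairs of arrays, by at least 1.66 on the log2 scale.

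The miR-376 miRNAs come from neighbouring hairpins. miR-376c read 0.215 and 0.218, then 0.0656 and 0.0823, and fell 2.95-fold (-1.56, limma adjusted p = 4.11e-06), on a probe of 5 spots per array. miR-376a read 0.288 and 0.375, then 0.119 and 0.135, and fell 2.59-fold (-1.37, adjusted p = 3.97e-05). miR-377, within the Mirg span, read 0.166 and 0.183, then 0.0579 and 0.0732, and fell 2.68-fold (-1.42, adjusted p = 2.16e-05).

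**Figure D3:**
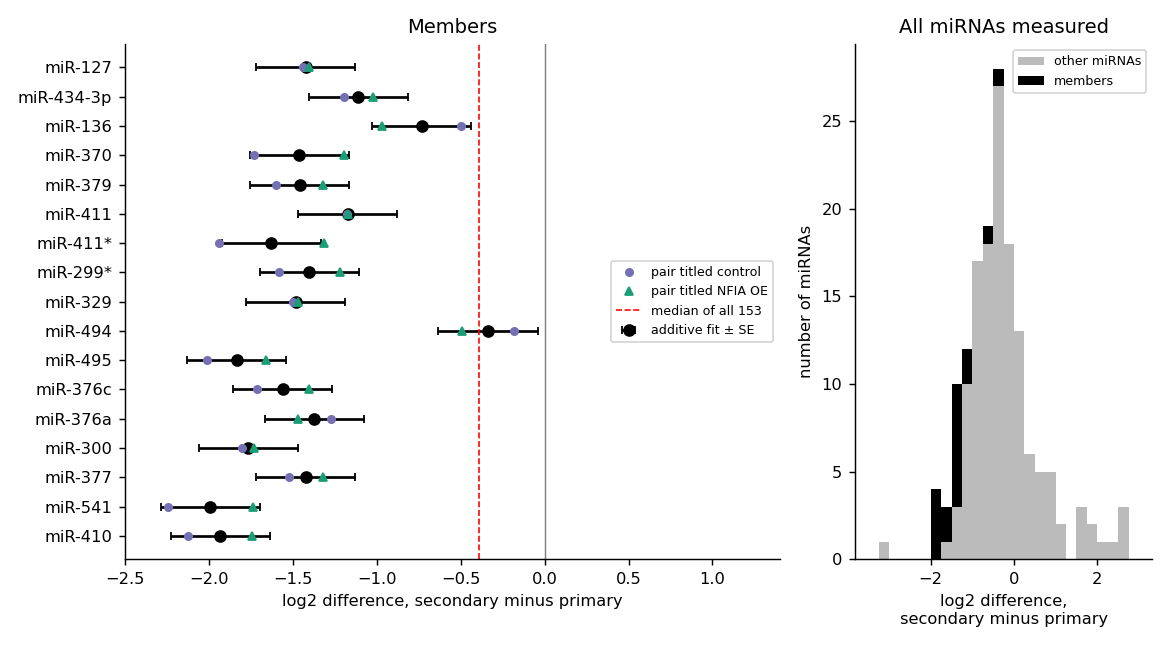
Left, log2 difference at passage 1 minus passage 0 (x axis) of each measured member, as the additive fit with its standard error (black, ± 0.29) and as each pair of arrays alone, with a dashed line at the median of all 153 miRNAs (-0.39). Right, the number of miRNAs (y axis) by that difference for the members and all others; the members lie from -1.99 to -0.34, the 2 nearest 0 being miR-494 and miR-136, whose signs depend on scaling.

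Taken as single pairs, with no test, 15 of the 17 members were at least 2-fold lower at passage 1 in the pair titled control, against 26.8% of all 153. In the pair titled NFIA OE it was also 15, against 16.3%. Both counts were made after scaling, and in each pair the secondary array had the higher 75th percentile. In the control-titled pair these percentiles were 167 (primary) and 443 (secondary) intensity units. Before scaling, miR-541, with the largest fall of that pair (-2.25), went from 55.6 to 31.0 units. miR-494, with the smallest (-0.18), went from 70.9 up to 165 units. Single pairs were not counted without scaling. The members' median after scaling was -1.58 in the control-titled pair (the first) and -1.32 in the other (the second). The second pair does not include the dim primary array, but its probes were still chosen by detection on all arrays, the dim one among them. The part of the dim array in the fall was not tested. The fall was larger in the first pair for 14 of the 17 members, against 49.0% of all 153, and the others were miR-136, miR-494 and miR-376a (-1.27 and -1.47). The widest gap between pairs, apart from miR-411*, was that of miR-370 (-1.73 and -1.19), and miR-541 had -2.25 and -1.74. That difference between pairs had no test, since the additive fit takes it as residual.

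Among the members that dropped below detection, those with the largest bounds lay in the Rtl1 antisense stretch and in the miR-379 to miR-410 group. A bound sets the mean primary level against the higher of the probe's own secondary signal and the lowest detected signal of that array. miR-431 gave 37.6 and 50.2 intensity units on the primary arrays and 6.91 and 10.2 on the secondary ones, before scaling, and was at least 3.66-fold higher at passage 0. miR-433 gave 29.8 and 44.6, then 14.1 and 17.7 units, and was at least 3.44-fold higher. Both lie antisense to Rtl1 beside miR-127.

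miR-543, which has been reported to target N-cadherin in migrating neurons, gave 33.2 and 35.9, then 17.2 and 15.2 units, and was at least 3.27-fold higher at passage 0. Its sequence partner miR-495 showed a 3.57-fold fall. miR-323-3p gave 25.8 and 36.7, then 8.02 and 11.8 units (at least 2.91-fold), and miR-409-3p gave 24.1 and 36.4, then 10.8 and 11.2 (at least 2.80-fold). For the 9 members detected on both primary arrays alone the bounds ran from 2.41-fold to 3.66-fold. These 9 had to lie on the higher side at passage 0 by the way they were picked. The secondary arrays had the higher 75th percentiles, so a fall after scaling is larger than that of the raw intensity.

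Precision within an array was high compared with these differences. The standard error over spots of a member's probe had a median of 0.043 log2 and was 0.117 at most. For the 5 members read by 2 probes on all arrays, the passage differences of the 2 probes lay 0.0057 to 0.082 apart. The other 12 were read by 1 probe. Levels at passage 1 were near the limit of detection: 10 of 17 members on the secondary array titled control and 8 on the one titled NFIA OE were within 2-fold of the lowest detected signal, against 3 and 0 on the primary arrays. With normexp background correction, which compresses low signals, the members' median was -1.0 and all 17 were lower.

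**Figure D4:**
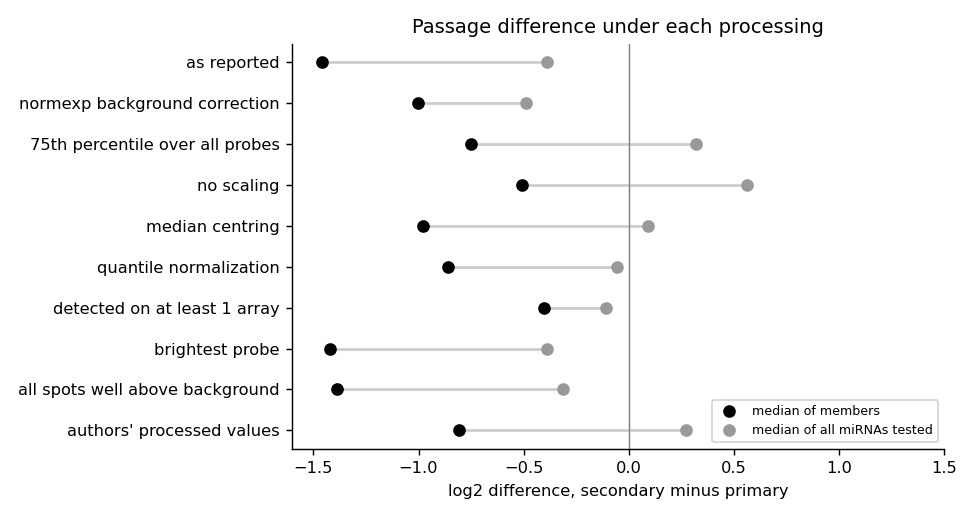
Median log2 difference at passage 1 minus passage 0 (x axis) of the members (black) and of all miRNAs tested (grey) under each processing (y axis). The members' median ran from -1.46 to -0.41 and lay below that of all miRNAs in each setting drawn. The percentile over all probes, no scaling and median centring shift each array as a whole, so the gap there equals that of the reported fit by construction. For single members the sign of miR-494 and miR-136 depended on the scaling.

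Other miRNAs fixed for comparison moved as follows. The 12 further miRNAs of the same locus on the array (miR-453, miR-493, miR-654-3p and others) were detected on 0 arrays. Of the 9 imprinted miRNAs of other loci, 3 were measured and all were called lower at passage 1 by limma, as were 32.7% of all 153. miR-335-5p, from an intron of the imprinted gene Mest, fell by 1.63 on the log2 scale (adjusted p = 1.45e-06). miR-298 and miR-296-5p, from the imprinted Gnas region, fell by 0.83 and 0.72 (adjusted p = 0.0142 and 0.037).

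Markers of pluripotent cells also moved with passage. Of 22 strands from the miR-290 to miR-295 and miR-302 to miR-367 clusters, 10 and 11 were detected at passage 0 (titled control, then NFIA OE) and 1 and 7 at passage 1. Their summed scaled signal was 5.13 and 4.37 at passage 0 and 0.247 and 0.484 at passage 1. That of the 62 Dlk1-Dio3 members was 5.91 and 6.50, then 1.96 and 2.36. Each sum adds the mean scaled signal of every strand over all its probes, with strand means below 0 set to 0. Undetected probes and strands were included, so it is not a sum of the levels given above. On the secondary array titled control 1 of the 22 pluripotent strands was detected, so the sum of 0.247 includes signal of undetected strands. Such sums weigh bright probes more, so they describe each list only. miR-302b, the 1 strand of these 22 measured on all arrays, fell by 3.24 on the log2 scale (limma adjusted p = 7.65e-19). On the secondary array titled control its log2 level of -4.34 equalled the lowest detected signal of that array. The neural progenitor miRNAs miR-9 and miR-9* rose by 1.87 and 2.60 (adjusted p = 3.82e-08 and 1.29e-13), while the neuronal miR-124 fell by 1.28 (adjusted p = 0.000133). The part that a change in cell makeup had in the fall of the cluster was not tested.

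The comparison by title asked whether the cluster differs between the sorted fractions. limma called 0 of the 17 members, and 0 passed an unadjusted p under 0.05, while 4 of all 153 miRNAs (2.61%) were called. The members' log2 differences (titled NFIA OE minus titled control) ran from -0.11 for miR-495 to 0.47 for miR-127, with a median of 0.29 against -0.0022 over all 153. Their lowest unadjusted p was 0.114 and their adjusted p-values ran from 0.764 to 0.920. Each difference has a standard error of 0.29, so that a change of the median's size in a single member could not be called at this number of arrays.

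The signs leaned one way all the same. In the fit 16 of 17 members were above 0, the exception being miR-495. In both pairs of arrays alone 14 of 17 were above 0, against 23.5% of all 153. Under other processing the signs of miR-370, miR-376c, miR-410, miR-434-3p, miR-495 and miR-541 turned in at least 1 alternative, all at values close to 0. The members' median was 0.08 with normexp background correction and 0.11 with the authors' processed values. Without scaling it was 0.47, with 17 of 17 above 0, and the median of all 153 was 0.19.

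Single members show how small these differences were. miR-127 was higher by 0.45 in the primary and 0.49 in the secondary pair, and miR-411 by 0.38 and 0.39. miR-329 had 0.34 and 0.37 and miR-300 had 0.25 and 0.32, so these 4 repeated between pairs to within 0.1. miR-136 had 0.55 and 0.08, and miR-411* had 0.04 and 0.66, which of all members differed most between pairs. miR-434-3p had 0.07 and 0.24, miR-379 had 0.20 and 0.48, miR-299* had 0.21 and 0.56 and miR-377 had 0.13 and 0.34. miR-376a and miR-494 were further apart by title at passage 0 (0.38 and 0.33) than at passage 1 (0.19 and 0.02), and miR-376c and miR-410 the reverse (0.02 and 0.03, then 0.33 and 0.41). At passage 0 the members' median was 0.20, with 14 of 17 above 0, against 75 of all 153. At passage 1 it was 0.37, with 17 of 17 above 0, while the median of all 153 was -0.09, with 63 above 0.

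**Figure D5:**
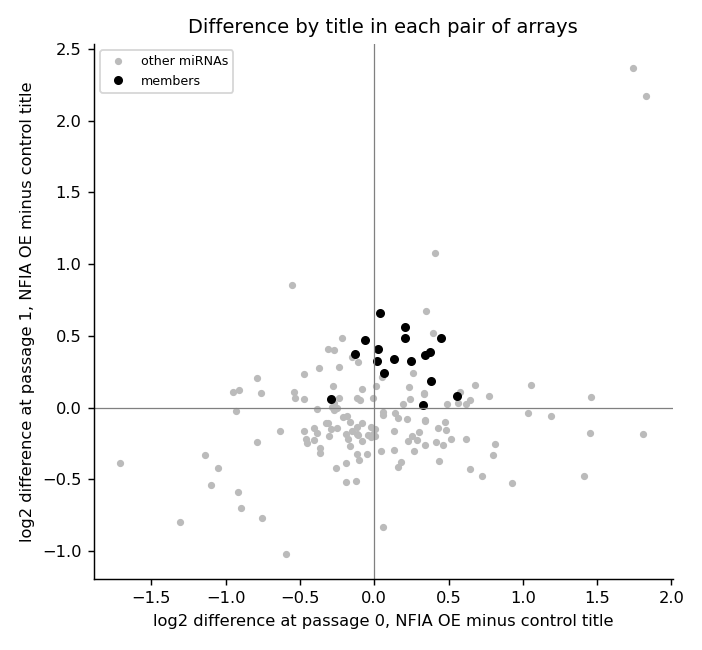
Log2 difference, titled NFIA OE minus titled control, at passage 0 (x axis) and at passage 1 (y axis) for each of 153 miRNAs, with the 17 members in black; each point rests on 1 array per side and has no test. Above 0 on both axes lie 14 members, with signs that turned under some processing for 6 members, and signs follow the titles, which the source names contradict.

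One-sided detection by title occurred mainly at passage 0, and at passage 1 for miR-369-5p alone, which was detected on the array titled control. The 8 members detected only on the primary array titled NFIA OE had raw signals there of 19.6 to 32.0 intensity units. On the primary array titled control, whose lowest detected signal was high once scaled, only 2 of the 8 gave a bound above 1: miR-337-3p, at least 1.16-fold higher, and miR-434-5p, at least 1.08-fold higher. For the other 6 no fold can be given. No member was detected on both arrays of one title and on neither array of the other.

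Among markers of mesenchymal cells, strands of miR-199 differed by title. Of 15 mesenchymal, muscle and endothelial miRNAs, 2 were detected on each array titled control and 4 on each titled NFIA OE. Their summed scaled signal, undetected strands included, was 0.443 and 0.308 on the arrays titled control, at passages 0 and 1. On those titled NFIA OE it was 1.47 and 1.54. miR-199a-3p and miR-199b* were higher by 2.05 and 2.0 (limma adjusted p = 1.38e-08 and 1.84e-08). The only others detected were miR-199a-5p and miR-214. On no array were 11 of the 15 detected, among them miR-143, miR-145, miR-1 and miR-206. The part of other cell types in the members' title differences was not tested.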

How the data were processed

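Spot intensity on a linear scale was deposited by the authors as scanner output of Feature Extraction 10.5.1.1, spatially detrended and background-subtracted, per the file headers, with no scaling between arrays. All 4 arrays were on 1 slide, so position cannot be told apart from title and passage. The authors' deposited table of processed intensity is linear and not centred: each value was the total gene signal of the scanner over a constant of its array. The constants were 20.3 and 34.1 (primary, titled control and NFIA OE) and 33.7 and 31.0 (secondary), for reasons not stated in the labels or headers, and the column medians were 0.882, 0.830, 0.700 and 0.816.

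Outlier spots were left out (265 to 300 per array; 0 were saturated), spots were averaged per probe, and each array was divided by its 75th percentile over probes detected on all arrays, then log2 was taken. A miRNA's value is the mean over its probes detected on all 4 arrays. limma 3.58.1 in R 4.3.3 was fitted to 153 miRNAs. The fit was also run on simulated arrays with independent normal noise of the pooled standard deviation for every miRNA. Over 20 runs it called 60.25% of 2-fold and 99% of 4-fold changes by passage, and 3.516% of its calls were false. The simulated arrays took the pooling as given and had no error shared by a culture or an array, so they cannot test either. Single pairs were counted at 2-fold without a test. Alternatives were other background corrections, scalings, filters, probe summaries, detection rules and the authors' values.

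Every member detected on all arrays is named with its values, the others with the arrays that detect them, and the 5 largest bounds by passage and those by title above 1 with their bound. Array names without an arm were matched to RefSeq names through later arm naming (38 names), and gene neighbours came from the GRCm38.p6 gene table. Members and lists were chosen with earlier results of these data known.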

Additional observations from a re-analysis of the deposited data

Results flagged for a closer look

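For 3 members the difference by title had opposite signs in the 2 pairs of arrays, below 0 at passage 0 and above 0 at passage 1. For miR-370 it was -0.06 and 0.47, a gap of 0.54 on the log2 scale. For miR-541 it was -0.13 and 0.38, a gap of 0.51, and for miR-495 it was -0.29 and 0.06, a gap of 0.35. The difference between the pairs was not tested, since each side is 1 array.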

How the results depend on the processing

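Of 16 members called lower by passage, 4 were called with the percentile over all probes and 0 by limma with no scaling, median centring, quantile normalization or detection on at least 1 array (0, 13, 13 and, of 35 members, 22 at an unadjusted p under 0.05). Of all miRNAs these settings called 22, 21, 0 and 0 of 153 and 2 of 252. With all spots required 11 of 13 were called, and 15 without title in the fit. The members' median passage difference was -1.0 with normexp, -0.75 with the percentile over all probes, -0.51 without scaling, -0.98 with median centring, -0.86 with quantile normalization, -0.41 with detection on at least 1 array, 0.00 with no filter and -0.81 with the authors' values. Where members below detection enter, signals were raised to 1 common floor, which narrows differences by construction, and with no filter most residual variances were exactly 0, so limma's calls there (3 of 62 members and 9 of 611 miRNAs by passage) were not used. For the other settings the cause was not tested. limma's prior degrees of freedom were infinite in the fit as reported and without scaling. The residual standard deviations there were 0.29 and 0.56. With the percentile over all probes, median centring and quantile normalization the prior degrees of freedom were 2.79, 3.14 and 1.78. The median residual standard deviations were 0.21, 0.29 and 0.18 in the same order. The passage difference of miR-136 turned to 0.22 without scaling, and that of miR-494 to 0.37 with the percentile over all probes, 0.61 without scaling, 0.14 with median centring and 0.32 with the authors' values. By title, miR-370 turned to -0.031 with detection on at least 1 array and -0.088 with the authors' values, miR-376c to -0.026 with detection on at least 1 array, miR-410 to -0.066 and miR-434-3p to -0.038 with quantile normalization, and miR-495 to 0.075 without scaling. miR-541 turned to -0.0020 with normexp, -0.016 with the percentile over all probes, -0.11 with quantile normalization, -0.069 with detection on at least 1 array and -0.0099 with the authors' values. No member was called by title (0) in any alternative, and at an unadjusted p under 0.05 3 of 62 passed with no filter, 2 of 35 where detection on at least 1 array was enough, and 0 in the other alternatives. The secondary array titled NFIA OE detected 27 members (43.5%) with the scanner's gene flag, against 40.8% of the other mouse miRNAs. The labels carry no replicate numbers to block on. The additive fit holds passage as a term when titles are compared, and so pairs the 2 arrays of each passage.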
